A study of Mus musculus with 12 samples.

Results

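The ERBB receptors and the EGF-type ligands that bind them were followed in mammary tissue of mice with few intact Stat5 alleles. The members were 9 genes chosen by name, 4 receptors (Egfr, Erbb2, Erbb3 and Erbb4) and 5 ligands (Egf, Nrg1, Btc, Tgfa and Hbegf), out of 18193 genes with a probe set that names them alone. Every probe set that the array platform assigns to a member was kept, whatever its signal, which gave 20 probe sets, 11 for receptors and 9 for ligands. Egfr had 7, Tgfa had 3, Erbb3, Btc and Hbegf had more than 1 each, and Erbb2, Erbb4, Egf and Nrg1 had 1 each.

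The tissue came from 12 pregnant mice, 3 of each of 4 genotypes, at day 6 after plug. Their background mixes 129, C57BL/6 and FVB. Mice labelled Stat5a-/- have 0 intact Stat5a and 2 intact Stat5b alleles, and Stat5ab+/null mice have 1 of each. Mice labelled Stat5abnull/Stat5a-, called single-Stat5b here, have 1 intact Stat5b allele and 0 of Stat5a. Mice labelled Stat5abnull/Stat5b-, called single-Stat5a here, have 1 intact Stat5a allele and 0 of Stat5b. All 4 genotypes thus carry fewer intact Stat5 alleles than wild-type mice, which were not analysed here. The labels also speak of sorted cells and of an injection that turns on an Mx1-Cre transgene, used to delete genes in blood cells. The mammary tissue named in the series design was taken as the source, and the labels leave unclear whether these mice received the injection.

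ERBB receptors sit in the plasma membrane and, once a ligand binds, pair with each other and switch on the RAS-MAPK and PI3K cascades. EGF and TGF-alpha bind EGFR, heparin-binding EGF and betacellulin bind both EGFR and ERBB4, and neuregulins bind ERBB3 and ERBB4. ERBB2 binds no ligand of its own and serves as a partner, and ERBB3 has little kinase activity and signals through its partners. In the mammary gland, EGFR acts in the stroma during growth of the ducts, and ERBB4 is needed for STAT5 activation and alveolar development in pregnancy. Most of the ligands are made as membrane proteins and are cut free by metalloproteases such as ADAM17.

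The 12 arrays form 2 sets by the number of intact alleles, a two-allele set of 6 arrays (Stat5a-/- and Stat5ab+/null) and a one-allele set of 6 arrays (single-Stat5b and single-Stat5a). The gap between the 3' and 5' actin control probe sets, which widens where RNA is degraded or labelling is short, was 2.16 to 3.78 on the log2 scale in the one-allele arrays and 0.13 to 0.27 in the two-allele arrays. Each genotype lies wholly in 1 set, so allele number and array set cannot be told apart. Levels were tested within a set, and only the interaction, described below, sets the 2 sets against each other. Bright markers of the labelled tissue were read in every array, with the luminal keratin gene Krt8 at 12.77 or more and the adipocyte hormone gene Adipoq at 13.72 or more. Other luminal genes shifted between the sets in either direction. Cldn4 read 4.80 to 6.86 in the one-allele arrays and 10.71 to 11.09 in the two-allele arrays. Grhl2 read 10.59 to 12.34 in the one-allele arrays and 8.54 to 9.29 in the two-allele arrays. Admixed tissue differed among mice of 1 genotype. The mean of the 10 of 11 skeletal muscle genes above the 30th percentile of signal was 7.73 to 10.70 in single-Stat5b and 9.64 to 13.45 in single-Stat5a, and that of 9 of 10 B and plasma cell genes was 6.47 to 11.46 in the arrays labelled Stat5a-/- and 7.60 to 11.92 in Stat5ab+/null. Of the targeted genes, Stat5a had 10.30 ± 0.18 and 8.94 ± 0.34 on its 2 probe sets in the arrays labelled Stat5a-/-, against 9.91 ± 0.15 and 8.37 ± 0.40 in Stat5ab+/null (SD, n = 3). Stat5b had 8.27 ± 0.09 and 9.59 ± 0.07 on its 2 in the arrays labelled Stat5a-/-, against 8.52 ± 0.18 and 9.90 ± 0.07 in Stat5ab+/null. All 4 probe sets thus run against the two-allele labels, and the Stat5a probe set at 10.30 and the Stat5b one at 9.59 do so without overlap. Stat5a had 10.98 ± 0.11 and 5.05 ± 0.08 in single-Stat5b and 12.21 ± 0.34 and 5.29 ± 0.35 in single-Stat5a, and Stat5b had 6.79 ± 0.16 and 9.63 ± 0.27 in single-Stat5b and 6.15 ± 0.14 and 9.43 ± 0.25 in single-Stat5a, the order the labels give. The sample titles of the two-allele mice carry the letter codes ABB (arrays labelled Stat5a-/-) and AAB (Stat5ab+/null), which the labels do not explain. Allele numbers here follow the genotype labels. If those of the two-allele mice were exchanged, the two-allele differences would change sign and the interactions would change in size. A probe outside the deleted part of the gene does not test a label, and the sources used here do not say where these probes lie. Directions drawn from these arrays rest on the label.

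Between the genotypes of 1 set, no member passed the test. Of the 20 member probe sets, 0 were called between the arrays labelled Stat5a-/- and Stat5ab+/null, where 0.00666% of all 45037 probe sets were called, and 0 between single-Stat5b and single-Stat5a, where 2.70% were (limma, Benjamini-Hochberg adjusted p under 0.05 over all probe sets). Without adjustment, 1 of the 20 had a p under 0.05 in each comparison, beside 3.17% of all probe sets in the first and 12.4% in the second. In the first this was 2 of 20 in a fit of these groups alone and 4 of 20 with array weights, with 0 called in both. The share of all probe sets under 0.05 in these fits was not counted, so these counts have nothing to be set against. The median member difference was -0.05 in the first comparison and 0.08 in the second on the log2 scale, against -0.03 and 0.02 over all probe sets. The smallest p that an exact permutation test of 3 mice against 3 can reach is 0.1, and the number of arrays limits what can be seen. In each comparison the 95% interval of the difference lay within 1 log2 unit either way, that is within a 2-fold change of signal, for 17 of the 20 member probe sets. Dim probe sets such as those of Erbb4 and Nrg1 are among the 17. For these a narrow interval of the signal does not bound the change in transcript. Each p-value measures a difference against 1 spread per probe set shared by the 12 arrays, so each comparison also uses the spread of the other set. The Erbb2 SE was 0.25 in both comparisons. Its SDs were 0.17 in the arrays labelled Stat5a-/- and 0.12 in Stat5ab+/null, but 0.60 in single-Stat5b and 0.23 in single-Stat5a.

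**Figure D1:**
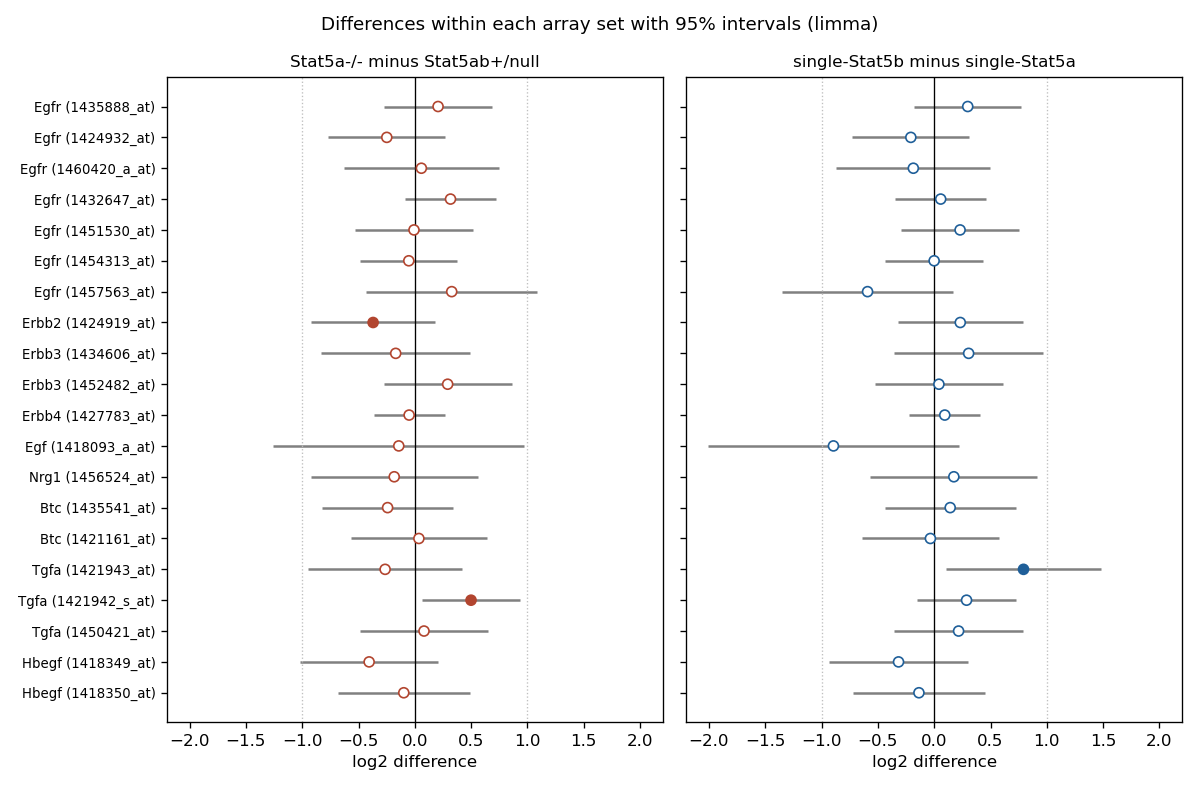
Log2 difference (x axis) of each of the 20 member probe sets (y axis) between the arrays labelled Stat5a-/- and Stat5ab+/null (left) and between single-Stat5b and single-Stat5a (right), with the 95% interval from limma as a bar and dotted lines at a 2-fold change. Filled points mark probe sets whose arrays do not overlap between the groups, 2 on the left (Erbb2 and a Tgfa probe set) and 1 on the right (another Tgfa probe set). The widest interval belongs to Egf.

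Among the receptors, Egfr, which binds EGF, TGF-alpha, betacellulin and heparin-binding EGF, was read by 1435888_at, its probe set with the highest mean. Its signal was 11.67, 11.49 and 11.26 in the arrays labelled Stat5a-/- and 11.56, 10.98 and 11.25 in Stat5ab+/null. It was 11.33, 11.68 and 10.92 in single-Stat5b and 11.20, 10.94 and 10.89 in single-Stat5a. The groups overlapped in both pairs, and the means of the 4 genotypes, 11.01 to 11.47, followed each other with overlap at every step. The differences were 0.21 (95% interval -0.27 to 0.68) in the two-allele set and 0.30 (-0.18 to 0.77) in the one-allele set, neither past the test. Single arrays weighed on both, with 0.065 without Stat5ab+/null 2 and 0.11 without single-Stat5b 2. The other Egfr probe sets differed by -0.25 to 0.33 in the two-allele set and by -0.59 to 0.23 in the one-allele set, and the groups overlapped for each of them.

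Erbb2, the partner receptor without a ligand, had 1 probe set. Its signal was 7.89, 7.90 and 7.60 in the arrays labelled Stat5a-/- and 8.06, 8.15 and 8.30 in Stat5ab+/null. Every array labelled Stat5a-/- was below every Stat5ab+/null array, at a difference of -0.37 (SE 0.25, 95% interval -0.92 to 0.18, limma adjusted p = 1.00). With the mean of the luminal epithelium list as a covariate the difference was -0.16, and a fit restricted to these 6 arrays gave an SE of 0.13 with a limma adjusted p = 0.384. Groups without overlap were common in this comparison, at 17.0% of all probe sets, against 2 of 20 among the members. In the one-allele set the signal was 9.36, 8.26 and 9.22 in single-Stat5b and 8.89, 8.45 and 8.80 in single-Stat5a, with overlap and a difference of 0.23 (95% interval -0.32 to 0.78), which was 0.58 without single-Stat5b 2 and 0.024 without single-Stat5b 1. The difference between the 2 comparisons was 0.60 (SE 0.36, limma adjusted p = 0.807) and did not pass, and it was 0.012 with the luminal covariate.

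Erbb3, the neuregulin receptor with little kinase activity, stood at 10.87, 10.49 and 10.05 in the arrays labelled Stat5a-/- and 11.02, 10.22 and 10.69 in Stat5ab+/null. Single-Stat5b arrays had 11.85, 11.61 and 11.67, and single-Stat5a arrays had 11.55, 10.73 and 11.92. The groups of each pair overlapped, with differences of -0.17 (95% interval -0.83 to 0.49) and 0.31 (-0.35 to 0.97). The lowest one-allele value came from single-Stat5a 2, whose muscle list mean was the highest of the 12 arrays, and without that array the difference was -0.03. The part of muscle tissue in this value was not tested. In bulk tissue, fewer cells of a type and less RNA per cell cannot be told apart. The second Erbb3 probe set was dim, with genotype means of 4.81 to 5.90, under the 30th percentile of probe set means (log2 6.05).

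Erbb4, the receptor tied to STAT5 activation in pregnancy, was at the low end of the array. Its 1 probe set had a mean at percentile 4.4 of all probe sets, with 3.84 to 3.88 in the arrays labelled Stat5a-/- and 3.86 to 4.00 in Stat5ab+/null. It read 4.18 to 4.35 in single-Stat5b and 3.94 to 4.34 in single-Stat5a. The differences were -0.05 and 0.09, with overlap in both pairs. Background was not measured, so these values do not show whether Erbb4 transcript was present, and a difference in Erbb4 could not be read at this signal.

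**Figure D2:**
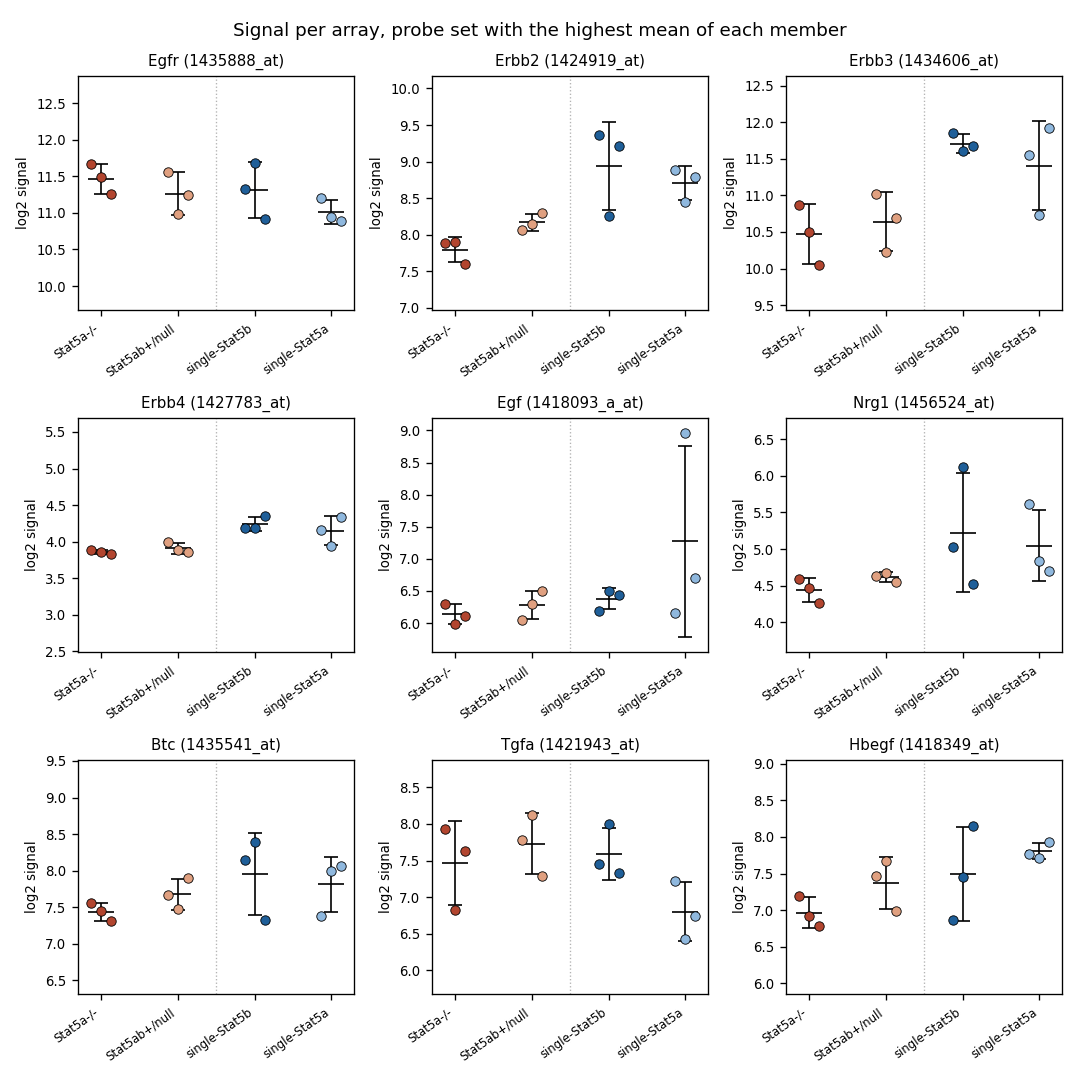
Log2 signal (y axis) of each array for the probe set with the highest mean of each of the 9 members, by genotype (x axis), with the mean and SD of 3 arrays as a bar and a dotted line between the two-allele and the one-allele set. Panels start at different levels, and levels of different genes cannot be set against each other. Arrays of the paired genotypes overlap in every panel but the Erbb2 panel for the two-allele set and the Tgfa panel for the one-allele set, and Egf has 1 high array in single-Stat5a, at 8.96.

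Among the ligands, Tgfa, which codes for the EGFR ligand TGF-alpha, had the lowest unadjusted p of the members in both sets, but through different probe sets. The probe set 1421943_at, with the highest mean of the 3, read 7.45, 8.00 and 7.33 in single-Stat5b and 7.22, 6.43 and 6.75 in single-Stat5a. Every single-Stat5b array lay above every single-Stat5a array, with a difference of 0.79 (SE 0.32, 95% interval 0.11 to 1.48, 1.73-fold). It was not called (limma adjusted p = 0.309, 0.0271 unadjusted), and groups did not overlap for 11.9% of all probe sets in this comparison. In the two-allele set the same probe set read 7.93, 6.83 and 7.63 in the arrays labelled Stat5a-/- and 7.78, 8.12 and 7.29 in Stat5ab+/null, with overlap and a difference of -0.26. The difference between the 2 comparisons was 1.06 (SE 0.45, limma adjusted p = 0.567) and did not pass.

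The Tgfa probe set 1421942_s_at gave the two-allele set the other pattern without overlap. It had 7.60, 7.72 and 7.37 in the arrays labelled Stat5a-/- and 7.00, 6.91 and 7.29 in Stat5ab+/null. The difference was 0.50 (SE 0.20, 95% interval 0.06 to 0.94, 1.41-fold), with a limma adjusted p = 1.00 (0.0290 unadjusted). In the one-allele set it was 0.29 (-0.15 to 0.73), and the means, 5.84 in single-Stat5b and 5.55 in single-Stat5a, were both under log2 6.05. The third Tgfa probe set differed by 0.08 in the two-allele set and 0.22 in the one-allele set. The platform lists the same source sequence for all 3, and they gave 5 of 6 differences above 0, of which none was called.

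The bases before the start of Tgfa are shown because this member had the lowest unadjusted p in both sets, and they were searched for a STAT5-type motif. The motif TTCNNNGAA, which reads the same on both strands, was searched in promoter windows of 300 bases, 250 before and 50 after the start. It occurred in 0 of 7 windows of 6 members (Egfr, Erbb2, Erbb4, Egf, Btc and Tgfa). Of 32851 such windows of all genes, 8.3% held it. Windows of Erbb3, Nrg1 and Hbegf were not searched, so the member counts leave these genes out. No match says only that these letters are not in these windows. The GC box GGGCGG, searched on both strands in the 250 bases before the start, occurred in 2 of the 7, those of Tgfa and Egfr, and in 32.7% of all windows. The sequence is from RefSeq, GRCm38.p6, chr6:86194972-86195221, plus strand, with GC boxes in capitals.
Tgfa: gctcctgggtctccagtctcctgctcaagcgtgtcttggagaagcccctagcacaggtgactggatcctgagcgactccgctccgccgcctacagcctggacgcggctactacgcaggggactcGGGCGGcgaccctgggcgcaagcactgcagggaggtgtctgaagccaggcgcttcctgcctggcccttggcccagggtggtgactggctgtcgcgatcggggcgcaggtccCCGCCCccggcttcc
These 250 bases are 69.2% G and C, with 2 GC boxes, 1 on each strand.

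Egf, which codes for the founding ligand of the family, was even across arrays but for 1 mouse. Its probe set read 6.30, 5.99 and 6.12 in the arrays labelled Stat5a-/- and 6.05, 6.29 and 6.49 in Stat5ab+/null. It read 6.19, 6.50 and 6.44 in single-Stat5b and 6.15, 8.96 and 6.70 in single-Stat5a. The value of 8.96 belongs to single-Stat5a 2, and the groups overlapped in both pairs. The difference between single-Stat5b and single-Stat5a was -0.89 (SE 0.51, 95% interval -2.01 to 0.22, limma adjusted p = 0.542), and without single-Stat5a 2 it was -0.05. That array also had the highest mean of the skeletal muscle list, 13.45 beside 6.14 to 10.70 in the other arrays, and the lowest mean of the luminal epithelium list, 9.98 beside 10.34 to 11.38. Their part in the Egf value was not tested.

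Nrg1, the neuregulin that binds ERBB3 and ERBB4, gave a low signal, with 4.26 to 4.59 in the arrays labelled Stat5a-/- and 4.55 to 4.68 in Stat5ab+/null. It read 5.03, 6.12 and 4.52 in single-Stat5b and 5.61, 4.84 and 4.70 in single-Stat5a. The differences were -0.18 and 0.17 with overlap in both pairs, and all 4 genotype means lay under log2 6.05. The second of these differences turned to -0.27 without single-Stat5b 2, the array at 6.12.

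Btc codes for betacellulin, and its brighter probe set had 7.44 ± 0.13 in the arrays labelled Stat5a-/- and 7.68 ± 0.21 in Stat5ab+/null (SD, n = 3). The level was 7.95 ± 0.56 in single-Stat5b and 7.81 ± 0.38 in single-Stat5a. The differences of -0.24 (95% interval -0.82 to 0.34) and 0.14 (-0.44 to 0.72) were within the spread of the arrays. Hbegf codes for heparin-binding EGF, and its brighter probe set had 6.97 ± 0.21 in the arrays labelled Stat5a-/- and 7.37 ± 0.35 in Stat5ab+/null. It read 6.87, 7.46 and 8.15 in single-Stat5b and 7.77, 7.72 and 7.93 in single-Stat5a. Hbegf differed by -0.41 (95% interval -1.02 to 0.21) and -0.32 (-0.93 to 0.30), with overlap in both pairs. The -0.32 was -0.0045 without single-Stat5b 1. The second Hbegf probe set differed by -0.10 and -0.14, and each of these changed sign in 3 alternatives, to at most 0.24 and 0.20. None was called, and no shared direction of the Hbegf probe sets can be read from these values.

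The difference between the 2 within-set comparisons, the interaction, was called for 0 of the 20 member probe sets, beside 0.950% of all probe sets. The lowest adjusted p was the 0.567 of Tgfa. The intervals of this double difference are wider, and 11 of the 20 lay within 1 log2 unit either way. An interaction sets 1 array set against the other. In it, allele number, array set and the 3' minus 5' signal cannot be told apart. It also rests on the two-allele labels, and its size would change if those were exchanged. Both limits hold for the interactions of pathway genes given below.

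Across the array sets, several member probe sets differed by more than any member did within a set, and the probe sets of Egfr did not move together. The one-allele and the two-allele arrays did not overlap for 9 of the 20 member probe sets, 2 of them higher and 7 lower in the one-allele arrays, beside 48.8% of all probe sets. The mean differed by over 1 on the log2 scale for 9 of the 20, beside 34.7% of all probe sets. Shifts of this kind were thus spread over the whole array and were not a mark of the members. No test of level was made across the sets, where allele number, array set and the 3' minus 5' signal move together and cannot be told apart.

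Egfr had probe sets that moved in opposite directions. Its probe set 1424932_at read 11.20 to 12.17 in the one-allele arrays and 9.42 to 10.19 in the two-allele arrays, a difference of 1.88. The probe set 1451530_at, for which the platform lists the same source sequence, read 5.34 to 6.24 in the one-allele arrays and 7.16 to 7.68 in the two-allele arrays, a difference of -1.73. The sets do not overlap for either, and the 2 probe sets run in opposite directions. A further pair of Egfr probe sets was lower without overlap in the one-allele arrays, at differences of -1.30 for 1460420_a_at and -1.56 for 1432647_at. The probe set 1435888_at, with the highest mean over the 12 arrays, differed by -0.20 with overlap. In the one-allele arrays its mean was 11.16, below the 11.63 of 1424932_at. No single change in Egfr transcript between the sets can be read from these probe sets. Opposite moves over 1 log2 unit without overlap occurred in 1 of the 5 members with several probe sets, in 12.8% of the 9010 genes with several probe sets and in 45.8% of the 393 genes with 6 or more.

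In the ligands, probe sets of 1 gene differed in size. Btc differed by 1.77 between the one-allele and the two-allele arrays on its dim probe set, 5.48 to 6.54 against 3.88 to 4.42, and by 0.32 on the other, where the sets overlap. Tgfa was lower in the one-allele arrays without overlap on 2 probe sets, at differences of -1.62 and -1.02, and differed by -0.40 with overlap on the one with the highest signal. Hbegf differed by -1.39 without overlap on 1 probe set and by 0.48 with overlap on the other. Erbb3 differed by 1.00 with overlap on the bright probe set and by -0.93 without overlap on the dim one. For Erbb2 the sets overlapped, at 8.26 to 9.36 in the one-allele arrays and 7.60 to 8.30 in the two-allele arrays, because 1 single-Stat5b array lay below the highest Stat5ab+/null array. Apart from Egfr, no member had opposite moves of over 1 without overlap.

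**Figure D3:**
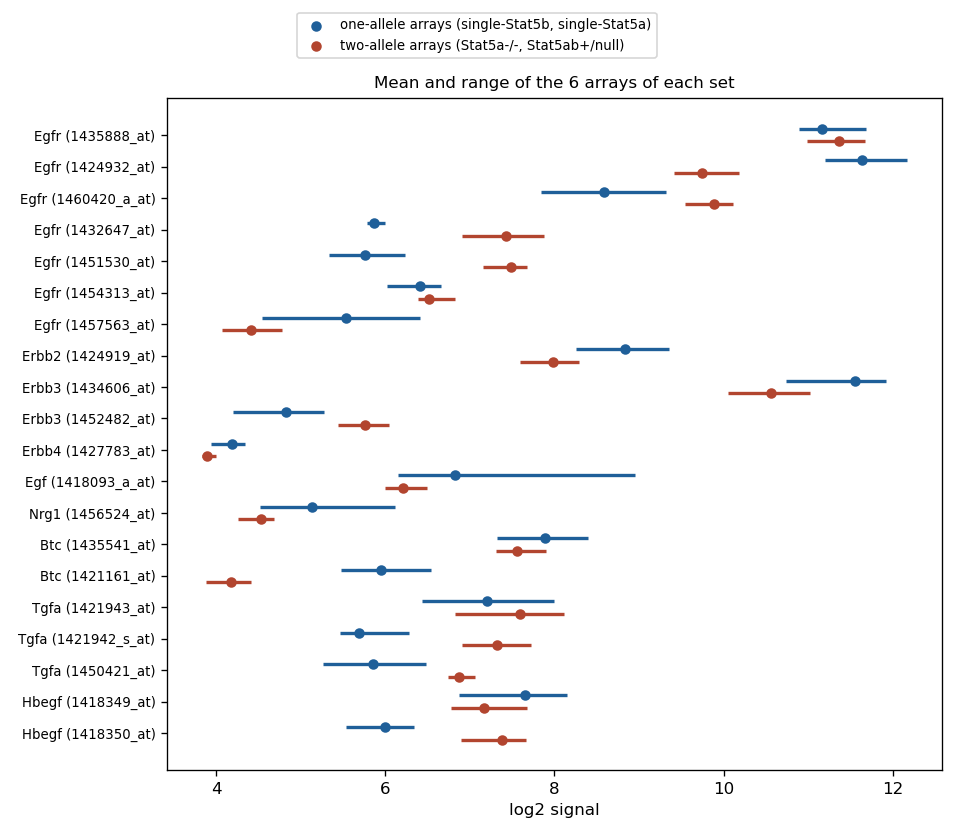
Mean (point) and range (bar) of the log2 signal (x axis) over the 6 one-allele and the 6 two-allele arrays for each of the 20 member probe sets (y axis). The sets do not overlap for 9 probe sets, and the 7 Egfr probe sets shift by -1.73 to 1.88, some up and some down.

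The genes around the receptors were followed in 6 further lists: other EGF-type ligands, proteins that release ligands, adaptors, inhibitors and turnover proteins, the RAS, MAPK and PI3K cascade, and MAPK feedback and response genes. Their 75 measured genes were read by the probe set with the highest mean. Between the arrays labelled Stat5a-/- and Stat5ab+/null, 0 of the 75 were called, where 0.00550% of 18193 genes were. An unadjusted p under 0.05 was found for 1 of them, beside 3.17% of all probe sets. This count was 9 in a fit of these groups alone and 10 with array weights, with 0 called in both. The share over all genes in these fits was not counted. Of the 75, 23 lay above 0, beside 37.6% of all genes, and the median was -0.11 beside -0.06 over all genes. Between single-Stat5b and single-Stat5a, 2 of the 75 were called lower in single-Stat5b and 0 higher. Of all genes, 2.32% were called, 1.39% lower and 0.934% higher. Of the 75, 10 had an unadjusted p under 0.05, beside 12.4% of all probe sets. Above 0 lay 37 of 75, beside 48.4% of all genes, with a median of -0.03 beside -0.01 over all genes. The 2 were Adam17, the protease that frees TGF-alpha and heparin-binding EGF from the membrane, and Lrig2, a membrane protein of the LRIG family, whose member LRIG1 restrains ERBB receptors. In each, 1 of several probe sets carried the call.

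Adam17 read 9.52, 10.19 and 10.23 in single-Stat5b and 11.56, 11.02 and 11.56 in single-Stat5a on the probe set 1421858_at. The groups did not overlap, and the signal was lower by 1.40 on the log2 scale in single-Stat5b than in single-Stat5a (SE 0.22, 2-sided limma adjusted p = 0.00335). In the two-allele set it read 10.47, 10.15 and 10.26 in the arrays labelled Stat5a-/- and 10.46, 10.43 and 10.12 in Stat5ab+/null, a difference of -0.04. The other 2 Adam17 probe sets differed by -0.09 and -0.00 between single-Stat5b and single-Stat5a, with overlap. Among them, 1421857_at read 6.70 to 7.38 in the one-allele arrays and 8.98 to 9.34 in the two-allele arrays, so the array sets stood apart on it as well. The interaction of 1421858_at, -1.35 (SE 0.32), did not pass (limma adjusted p = 0.0836), though it did with array weights (0.0122) and without single-Stat5a 2 (0.0449). The call ended in a fit of the single-Stat5b and single-Stat5a arrays alone, at a limma adjusted p = 0.0554 and the same difference.

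Lrig2 had 10.68, 11.05 and 11.07 in single-Stat5b and 12.09, 12.09 and 12.20 in single-Stat5a on 1455217_at, again without overlap. It was lower by 1.20 on the log2 scale in single-Stat5b than in single-Stat5a (SE 0.16, limma adjusted p = 6.97e-04). In the two-allele set it read 9.17, 9.24 and 9.21 in the arrays labelled Stat5a-/- and 9.52, 9.31 and 9.19 in Stat5ab+/null, a difference of -0.14. The interaction was called at -1.06 (SE 0.22, limma adjusted p = 0.0434, where 0.792% of all genes were called, and 0.429% lower). It was lost in 17 of 22 alternatives, among them without any one array other than single-Stat5b 2 or 3, at adjusted p of 0.0601 to 0.148 in these leave-outs. The second Lrig2 probe set differed by 0.02 between single-Stat5b and single-Stat5a, with overlap.

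**Figure D4:**
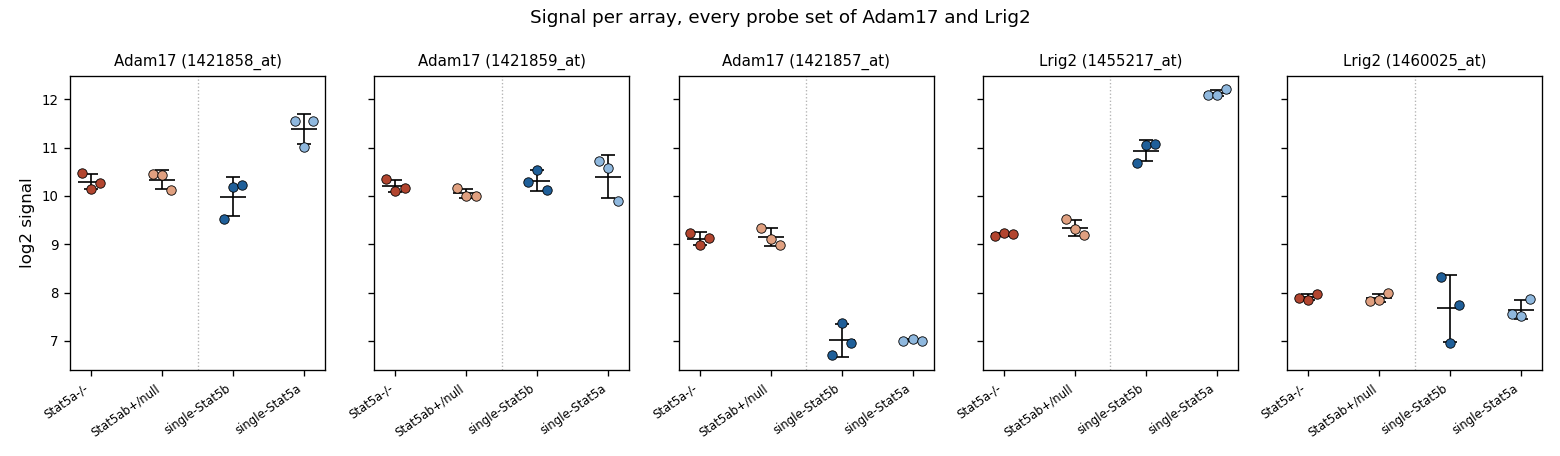
Log2 signal (y axis) of each array for the 3 Adam17 and the 2 Lrig2 probe sets by genotype (x axis), with the mean and SD of 3 arrays as a bar. On 1421858_at and 1455217_at the single-Stat5b arrays lie below the single-Stat5a arrays without overlap, and on the other 3 probe sets they overlap.

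The promoters of these called genes are shown, in the same window before the start, since their signals differed between single-Stat5b and single-Stat5a. Neither holds TTCNNNGAA in its 300 bases, and each has 1 GC box, in capitals. The sequences are from RefSeq, GRCm38.p6, at chr12:21373633-21373882 for Adam17 and chr3:104511919-104512168 for Lrig2, both on the minus strand.
Adam17: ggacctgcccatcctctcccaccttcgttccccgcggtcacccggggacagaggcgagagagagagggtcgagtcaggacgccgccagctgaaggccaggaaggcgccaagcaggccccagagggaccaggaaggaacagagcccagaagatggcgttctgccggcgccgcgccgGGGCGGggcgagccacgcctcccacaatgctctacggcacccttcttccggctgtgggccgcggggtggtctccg
Lrig2: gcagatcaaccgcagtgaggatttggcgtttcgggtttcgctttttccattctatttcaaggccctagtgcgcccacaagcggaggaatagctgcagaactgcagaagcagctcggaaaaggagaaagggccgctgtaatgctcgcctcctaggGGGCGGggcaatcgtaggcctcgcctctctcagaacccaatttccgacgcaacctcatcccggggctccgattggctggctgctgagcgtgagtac
The 250 bases are 70.4% G and C for Adam17 and 57.6% for Lrig2.

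No other gene of the lists passed by its probe set with the highest mean. Among the other 5 ligands, epiregulin (Ereg), an EGFR ligand, differed by 0.95 between single-Stat5b and single-Stat5a (limma adjusted p = 0.155), with means of 6.52 and 5.57. Nrg4, a neuregulin that binds ERBB4, differed by -0.60 (0.231), and its second probe set by -0.37. Between the arrays labelled Stat5a-/- and Stat5ab+/null, Nrg4 differed by -0.37 and -0.47 on these probe sets and Nrg3 by 0.18. Nrg4 thus lay below 0 on both probe sets in both comparisons, with no call.

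Among ligand release genes, Rhbdl2, a rhomboid protease, differed by 0.66 in the one-allele set and 0.37 in the two-allele set, and Rhbdf2, the iRhom that helps ADAM17 mature, by -0.30 in the two-allele set. Of the inhibitors and turnover genes, Rnf41, the ubiquitin ligase that marks ERBB3 for breakdown, differed by -1.07 in the one-allele set (limma adjusted p = 0.0636), and Cblb and Ubash3b, both negative regulators of receptor signalling, by -0.36 and -0.35 in the two-allele set. The 4 Rnf41 probe sets differed by -1.30 to 0.46, and 1455763_at, chosen after its values were seen, was the 1 called (-1.30, limma adjusted p = 3.88e-04). Its interaction was called too, at -1.65 (limma adjusted p = 0.00222), beside 0.950% of all probe sets. In the two-allele set this probe set had means of 7.57 in the arrays labelled Stat5a-/- and 7.21 in Stat5ab+/null, a difference of 0.36 without overlap. That probe set had 7.30, 7.41 and 7.14 in single-Stat5b and 8.83, 8.40 and 8.52 in single-Stat5a. An uncalled main reading beside a called second one was also found for the adaptor gene Nck1 (1.37 on 1447271_at, limma adjusted p = 0.0103), again chosen after its values were seen. The 75 genes have 199 probe sets. Between single-Stat5b and single-Stat5a, 1 probe set each of Adam17, Lrig2, Rnf41 and Nck1 was called among them, beside 2.70% of all probe sets.

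Of the adaptors, Shc4 differed by 0.78 and Gab2 by -0.39 in the one-allele set, and Grb2 by -0.39 and Shc2 by -0.34 in the two-allele set. In the kinase cascade, Pik3r2, a regulatory subunit of PI3K, and Akt2 differed by 0.50 and -0.39 in the one-allele set, and Map2k2 and Akt1 by -0.37 and -0.28 in the two-allele set. Among MAPK feedback and response genes, Spry1, an inhibitor of receptor signalling, differed by -0.92 in the one-allele set (limma adjusted p = 0.0990) and -0.59 in the two-allele set. The transcription factor gene Fosl1 differed by -0.51 in the one-allele set and Fos, of the same family, by -0.49 in the two-allele set. None of these passed.

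Likeness to other genes was measured by Pearson r over the 12 arrays after the mean of each array set was subtracted, as a description, over 14192 genes above the 30th percentile of signal. The arrays differ in muscle and lymphoid admixture, which many genes follow at once, and each gene named is the highest or next highest of the 14192. For Erbb2 the highest were the myosin gene Myh14 (0.95) and the luminal keratin gene Krt7 (0.94), and for Erbb3 Shroom2 and Gtf3c4 (both 0.93). Egfr was most like Ncoa2 and Fam160a2 (both 0.90), Egf like Plaat1 and Art5 (both 0.96), and Btc like Tbck (0.96) and Adipor1 (0.91). Tgfa was most like 4930445K14Rik (0.91) and Cd33 (0.90), and Hbegf like Prkcd (0.95) and C1qtnf7 (0.95). Against the marker lists, each member was read by its probe set with the highest mean. The mean of the luminal epithelium list had an r of 0.82 with Erbb2 and 0.82 with Erbb3, and the dim Erbb4 had 0.79 with it. The muscle list had -0.84 with Erbb3. The macrophage list had 0.79 with Hbegf and -0.75 with Btc, and the white adipocyte list had -0.73 with Tgfa and -0.61 with the dim Nrg1. Other probe sets of these genes gave other values. The dim Erbb3 probe set had -0.46 with luminal epithelium and -0.27 with muscle. The other Tgfa probe sets had -0.45 and -0.25 with white adipocyte, and the second Hbegf and Btc ones 0.54 and -0.53 with macrophage. Egf had -0.71 with the hormone-sensing luminal list, -0.67 with luminal epithelium, 0.63 with muscle and 0.61 with skin keratinocytes, over arrays of which single-Stat5a 2 alone stood at 8.96. The likeness to single genes was not computed for Erbb4 and Nrg1, which were under the 30th percentile of signal.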

How the data were processed

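The authors deposited log2 signals per probe set for 12 Affymetrix mouse arrays hybridized with biotin-labelled cRNA. Per the submitters' processing notes RMA and Partek were used, with no version or setting stated there, and no build is stated either. Groups came from the genotype labels, and replicate numbers follow record order and pair nothing.

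Of 45101 probe sets, 64 controls were left out and 45037 entered 1 linear model (limma 3.58.1, R 4.3.3) with a mean for each genotype and a common spread, 2-sided moderated tests and Benjamini-Hochberg adjustment over all 45037 probe sets. No filter on signal was applied. A gene was read by the probe set whose mean signal was highest. Gene names came from the platform's table (34945 probe sets with 1 gene, 932 with several, 9160 others with none). The members, the lists and the tests were chosen with earlier results of these data known.

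Genes named were the members, called genes of the 6 pathway lists, the 2 with the largest difference per list and within-set comparison, and the 2 most like each member. Intervals are 95% intervals of the limma fit. The fit was tested on simulated data. The alternatives were a filter at the 30th percentile, 1 probe set per gene, quantile normalization, median centring, only the groups compared, a trended robust variance, array weights, 3 sets of covariates, 4 arrays left out together and each array left out. Sequences came from RefSeq promoter windows (GRCm38.p6).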

Additional observations from a re-analysis of the deposited data

How the results depend on the processing

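No paired analysis was possible because the labels give the mice of different genotypes no shared numbers. Of the 49 member differences (20 probe sets in each within-set comparison and 9 interactions), recomputed 1078 times over 23 alternatives, 0 passed at an adjusted p under 0.05 in any of them, and 88 of the 1078 values changed sign. The lowest adjusted p was 0.0504, for the Tgfa probe set 1421942_s_at between the arrays labelled Stat5a-/- and Stat5ab+/null with array weights. The count of pathway genes called between single-Stat5b and single-Stat5a, 2 as reported, was 1 in a fit of these groups alone and 4 with the luminal epithelium list as a covariate, and 2 to 7 with 1 array left out, the 7 without single-Stat5b 3. The share of all genes called in these fits was not counted. These counts thus have nothing to be set against and say nothing about the pathway genes. Of the members' probe sets with the highest mean, sign changes between the arrays labelled Stat5a-/- and Stat5ab+/null were to 0.094 for Erbb3 and 0.016 for Erbb4 with the luminal covariate. With 1 array left out, Erbb3 ranged from -0.38 to 0.040 and Tgfa from -0.50 to 0.053. Between single-Stat5b and single-Stat5a, the luminal covariate gave -0.15 for Erbb2, -0.17 for Erbb3 and -0.027 for Erbb4, and the B cell and muscle covariates gave -0.12 for Erbb3, -0.036 for Nrg1 and -0.11 for Btc. Nrg1 was -0.16 with array weights and -0.38 with 4 arrays left out. With 1 array left out, the ranges were -0.029 to 0.57 for Erbb3, -0.0076 to 0.19 for Erbb4, -0.27 to 0.52 for Nrg1, -0.077 to 0.46 for Btc, -1.45 to -0.052 for Egf, 0.11 to 0.50 for Egfr, 0.024 to 0.58 for Erbb2 and -0.65 to -0.0045 for Hbegf. In the two-allele set Egfr ranged from 0.065 to 0.35 in this way. The cause of these changes was not tested. Lrig2 kept its call between single-Stat5b and single-Stat5a in 23 of 23 alternatives and Adam17 in 22 of 23. The number of arrays limits what can be seen, and a difference in the dim members Erbb4 and Nrg1 could go unread.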
